A study of Mus musculus with 2 samples.

Results

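Distal intronic regions are stretches of accessible chromatin that lie inside the introns of protein-coding genes, away from any promoter. They were defined from the thresholded peak list of activated mouse regulatory T cells: overlapping peaks were merged, each region took the summit of its strongest peak, and a region was kept when that summit lay more than 1000 bp from every protein-coding transcription start site (TSS) and in an intron, not an exon, of a protein-coding gene in GENCODE M21. Of 26090 regions, 7118 met this rule (27.3%, Wilson 95% interval 26.7 to 27.8). The other regions comprised 11022 at promoters, 7311 between genes and 639 in exons. Each member was then placed by intron number in the longest transcript of its host gene: 2423 lay in the first intron and 4418 in a later one. A further 71 lay in the first intron of one gene and a later intron of another, and 206 lay in an intron of a shorter transcript only. These last 2 sets are counted among the members but enter neither class.

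The assay was ATAC-seq, in which a transposase inserts into open chromatin. The cells were activated regulatory T cells of male adult mice aged 4 months with the alleles Foxp3CreERT2 x Rosa26YFP, and the labels describe them as primary cells that originated from a bone marrow hematopoietic cell. The allele names denote a tamoxifen-inducible Cre driven from Foxp3, the lineage factor of regulatory T cells, and a yellow fluorescent reporter. There was 1 group, with 2 libraries given as technical replicates of 1 biological replicate. The peak lists pool both libraries, so no value carries a spread between animals, no test between samples was possible, and the read depth is unknown. Intervals below are 95% intervals that cover counting error only, and the signal is the value that the authors' peak caller gave each peak, on a scale that the sources used here do not state. Among marker genes, a promoter region was present at Cd3e, Il2ra, Ctla4 and Ikzf2, and a distal intronic region at Cd4 and Foxp3, while Cd8a, Cd14, Cd68, Klrk1 and Csf1r had no region at all. At Cd4 and Foxp3 no strongest summit lay within 1000 bp of a TSS. Genes of other lineages were not all closed: of 12 B cell genes, Pax5, Ebf1 and Cr2 had a promoter region, and of 13 myeloid genes, Spi1 and Cebpa did. The part of other cell types in the regions was not tested.

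Introns hold much of the regulatory DNA of mammalian genes. The first intron starts next to the promoter, is usually the longest, and is known for enhancers that act on its own gene: in Foxp3 it carries conserved noncoding elements that control the onset and the stability of Foxp3 expression. Enhancers in T cells are typically bound by ETS and RUNX factors, with AP-1 and NF-kB factors after activation. CTCF, by contrast, binds a long motif at chromatin loop anchors and insulators.

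The sequences below show 50 bp to each side of the summit, read from the plus strand of GRCm38 (mm10), 5′ to 3′. Capitals mark matches, on either strand, to the 17 consensus motifs searched. The first set holds, for genes central to regulatory T cells and genes with many members, the member of highest signal in the intron class named, because the host genes below turn on them. The Foxp3 window held STAT and GATA letters and the Ext1 window NF-kB and GATA letters. The Il2ra window held an E-box alone, and the Ctla4 and Ikzf2 windows held no match. In the Bach2 window the capitals mark forkhead, STAT and TCF/LEF letters, in Foxp1 RUNX and in Itpr1 ETS.
Foxp3, first intron, chrX:7584017-7584117: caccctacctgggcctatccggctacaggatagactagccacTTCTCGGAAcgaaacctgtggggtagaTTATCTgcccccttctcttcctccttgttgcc
Il2ra, first intron, chr2:11653512-11653612: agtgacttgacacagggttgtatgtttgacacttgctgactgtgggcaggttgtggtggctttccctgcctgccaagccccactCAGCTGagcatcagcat
Ctla4, first intron, chr1:60911712-60911812: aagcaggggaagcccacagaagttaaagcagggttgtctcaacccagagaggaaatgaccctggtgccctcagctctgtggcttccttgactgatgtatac
Ext1, first intron, chr15:53249128-53249228: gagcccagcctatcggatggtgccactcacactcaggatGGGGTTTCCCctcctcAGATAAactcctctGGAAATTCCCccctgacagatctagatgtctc
Ikzf2, intron 6, chr1:69544336-69544436: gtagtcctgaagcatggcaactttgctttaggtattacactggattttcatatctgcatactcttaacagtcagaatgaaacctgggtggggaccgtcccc
Bach2, intron 2, chr4:32343921-32344021: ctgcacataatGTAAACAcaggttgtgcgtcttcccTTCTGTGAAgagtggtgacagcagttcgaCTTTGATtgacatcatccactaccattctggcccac
Foxp1, intron 10, chr6:98992897-98992997: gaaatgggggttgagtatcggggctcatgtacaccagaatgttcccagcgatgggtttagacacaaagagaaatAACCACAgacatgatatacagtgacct
Itpr1, intron 42, chr6:108435538-108435638: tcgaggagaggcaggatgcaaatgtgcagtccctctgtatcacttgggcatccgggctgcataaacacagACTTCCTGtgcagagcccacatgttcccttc

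The second set shows the CTCF consensus, a motif whose share differed between the intron classes. Pde4d hosts the strongest distal intronic region with that motif. The other windows come from members of high signal in either class whose match lay within 50 bp of the summit, and were chosen after their values were seen.
Pde4d, intron 7, chr13:109776229-109776329: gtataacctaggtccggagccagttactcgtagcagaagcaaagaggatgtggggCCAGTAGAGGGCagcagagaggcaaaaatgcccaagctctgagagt
Tmem242, intron 3, chr17:5429545-5429645: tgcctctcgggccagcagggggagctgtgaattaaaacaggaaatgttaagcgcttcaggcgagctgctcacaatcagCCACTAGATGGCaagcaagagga
Fam53b, intron 3, chr7:132735308-132735408: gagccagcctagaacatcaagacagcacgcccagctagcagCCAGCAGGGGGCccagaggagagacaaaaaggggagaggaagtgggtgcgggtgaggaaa
Alpk1, first intron, chr3:127763236-127763336: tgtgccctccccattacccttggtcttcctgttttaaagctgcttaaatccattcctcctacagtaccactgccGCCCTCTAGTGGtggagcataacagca
Pkig, first intron, chr2:163719425-163719525: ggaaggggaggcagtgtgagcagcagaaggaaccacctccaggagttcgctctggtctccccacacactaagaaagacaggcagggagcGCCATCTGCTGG
Pds5b, first intron, chr5:150702875-150702975: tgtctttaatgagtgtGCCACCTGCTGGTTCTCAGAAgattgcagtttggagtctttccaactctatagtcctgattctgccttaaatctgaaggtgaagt

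First introns were denser in accessible regions than later ones. They made up 24.9% of the eligible bases, that is, of intronic bases over 1000 bp from any protein-coding TSS and outside exons, but held 34.0% of the members (32.9 to 35.1). In density, 10.9 members fell on each Mb of first intron and 6.93 on each Mb of later intron, a ratio of 1.58 (1.50 to 1.66). The density was highest in intron 1. It was 10.8 per Mb in intron 1 (10.4 to 11.3), counted per pair of member and host gene, then 8.77 in intron 2 (8.29 to 9.26), 7.38 in intron 3, 7.52 in intron 4 and 6.09 in intron 5 (5.43 to 6.81). In introns 6 to 10 it was 6.83 (6.41 to 7.28), and from intron 11 on it was 5.50 (5.14 to 5.88). The intervals of introns 3 and 4 overlapped, and those of introns 1 and 2 did not. Last introns, at 8.25 per Mb (7.57 to 8.97), were denser than the other later introns, at 6.90 (6.69 to 7.12). Among first introns, those that lie wholly within the 5′ UTR reached 11.6 per Mb (10.9 to 12.4) and those past the start of the coding sequence 10.4 (9.90 to 10.9).

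Intron length changed the density of both classes. First introns of 20 to 50 kb were the densest, with 847 pairs and 15.8 per Mb (14.8 to 16.9), while first introns over 100 kb held 4.94 per Mb (4.48 to 5.44). Later introns stayed between 7.30 and 8.70 per Mb up to 50 kb and fell to 3.51 (3.20 to 3.85) over 100 kb. In each of 7 length classes the first introns were denser, by 1.41 to 2.03 times. Under 2 kb, with 16 first-intron pairs, the intervals overlapped (7.11 to 20.2 against 6.63 to 8.02). Inside introns of 10 kb or more, the 5 equal parts from the 5′ to the 3′ end of a first intron held 11.1, 9.62, 11.1, 10.8 and 10.3 members per Mb. The part next to the promoter was no denser than the middle part.

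**Figure D1:**
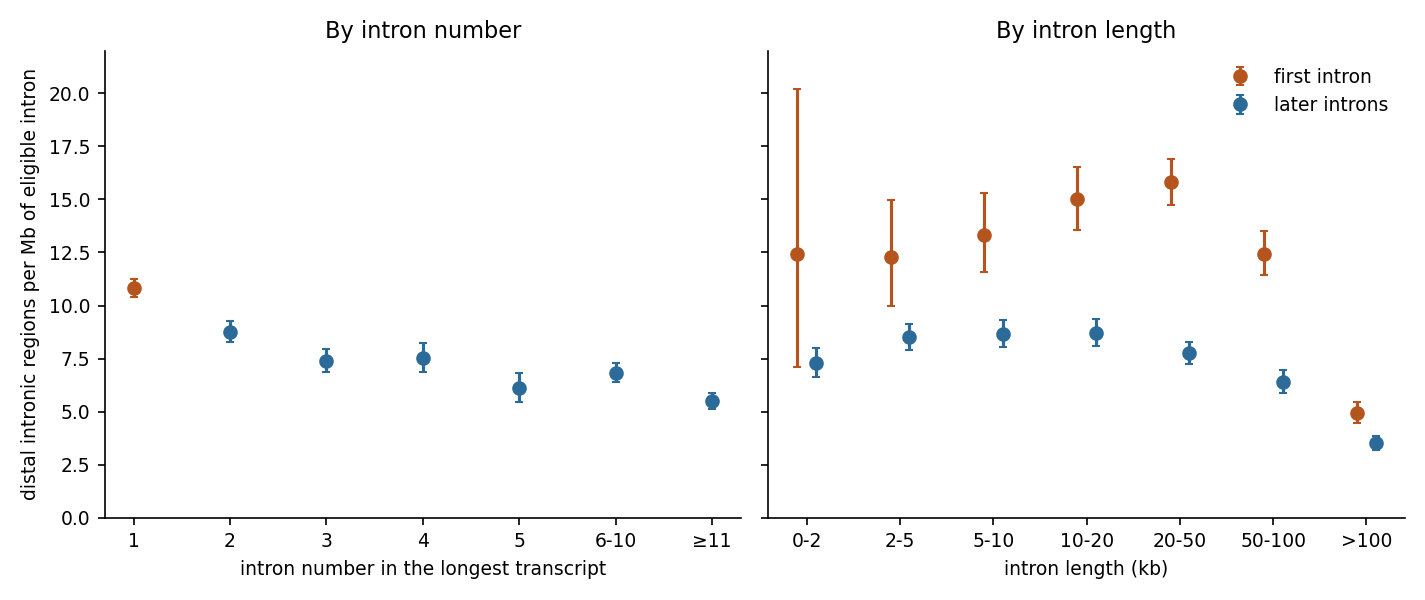
Density of distal intronic regions by intron number in the longest transcript (left) and by intron length in kb (right), as member and host pairs per Mb of eligible intron. Points are densities and bars Poisson 95% intervals; orange marks the first intron and blue later introns. Density falls from 10.8 per Mb in intron 1 to 5.50 from intron 11 on, and first introns peak at 20 to 50 kb with 15.8 per Mb.

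Distance to the start of the host gene is shorter in first introns, with a median of 15.3 kb against 50.4 kb for later introns, so the classes were compared at equal distance. At 1 to 5 kb from the start, first introns held 14.0 members per Mb (12.8 to 15.2) and later introns 8.04 (6.77 to 9.47). At 10 to 20 kb the values were 14.7 (13.5 to 16.0) and 10.3 (9.46 to 11.1). The classes came together at 50 to 100 kb, with 8.72 (7.75 to 9.77) and 8.23 (7.72 to 8.77), and beyond 100 kb first introns were the sparser at 3.65 (3.10 to 4.27) against 4.39 (4.15 to 4.63), with intervals that just overlapped. Members in the 4.38 Mb first intron of Gm20388, which encloses 71 other protein-coding genes, are among the 156 first-intron pairs beyond 100 kb. That intron held 67 members at all distances, and the density beyond 100 kb was not computed without it. Had first introns held members at the later-intron density of the same distance, 1983 pairs would have been found; the count was 2543, a ratio of 1.28.

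Both classes were denser where the promoter of the host was itself accessible. A host had a promoter region when the strongest summit of some region lay within 1000 bp of one of its TSSs. In first introns the density was 20.6 per Mb (19.8 to 21.5) with a promoter region and 3.20 (2.90 to 3.52) without, a 6.44-fold difference. In later introns it was 11.6 (11.24 to 12.01) and 2.99 (2.81 to 3.18), a 3.89-fold difference. In hosts with a promoter region, 5 distance classes ran from 5 to 10 kb outward. Their ratios of first to later density were 1.46, 1.71, 1.62, 1.80 and 1.44, and the intervals did not overlap in any of them. Gm20388 is such a host, and its first intron held 67 members at all distances. Members of that intron are among the 134 first-intron pairs beyond 100 kb. The ratio of 1.44 and its intervals were not computed without that intron, so they may depend on it. Without a promoter region the ratio was 1.35 at 1 to 5 kb, with overlapping intervals, and the same 5 ratios were 1.03, 0.771, 0.537, 0.691 and 0.396. At 20 to 50 kb from the start of such hosts, first introns held 3.04 members per Mb (2.43 to 3.76) and later introns 5.66 (5.02 to 6.37). The intervals also stood apart beyond 100 kb, but they overlapped at 5 to 10, 10 to 20 and 50 to 100 kb. Of all first-intron pairs, 83.4% lay in hosts with a promoter region, and of later-intron pairs 77.5%.

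**Figure D2:**
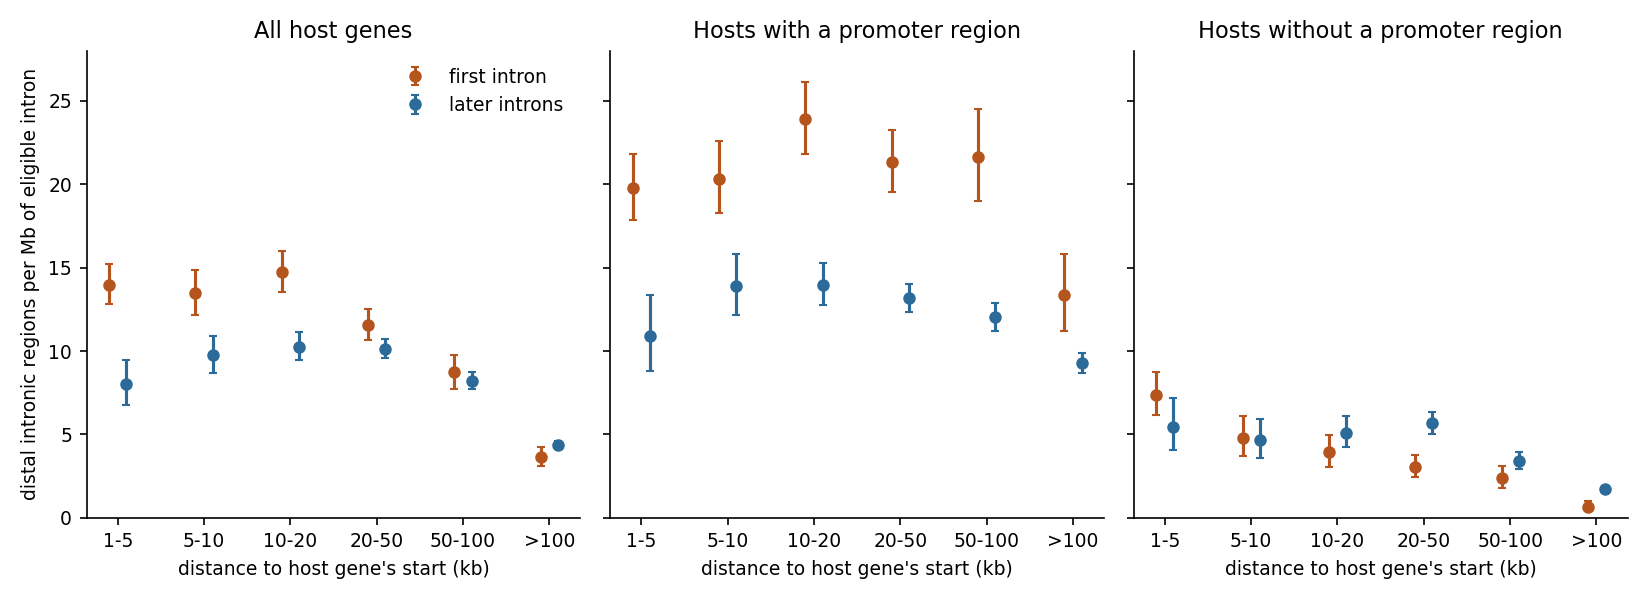
Density of distal intronic regions (member and host pairs per Mb of eligible intron) by distance to the start of the host gene in kb, for all hosts (left), hosts with a promoter region (middle) and hosts without one (right). Points are densities, bars Poisson 95% intervals, orange the first intron and blue later introns. With a promoter region first introns stand above later ones in every class. The class beyond 100 kb includes members of the long first intron of Gm20388. Without one they stand below later introns in the classes from 10 kb on, with overlapping intervals at 10 to 20 and 50 to 100 kb.

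First-intron regions had the lower signal. Their median signal was 11.1 (10.8 to 11.3, quartiles 7.93 and 14.8) against 12.6 (12.5 to 12.9, quartiles 9.61 and 16.3) in later introns, beside 13.1 for intergenic regions and 15.4 for promoter regions. Both classes had their lowest signal close to the gene start. At 1 to 5 kb the median was 7.79 in first introns (7.53 to 8.16) and 9.07 in later ones (8.19 to 10.1). At 5 to 10 kb it was 10.9 (10.3 to 11.8) and 12.5 (11.9 to 13.2), and beyond 100 kb it was 12.5 in first introns and 12.7 in later introns, with overlapping intervals. Regions just inside the distance rule resembled those just outside it: the 78 members at 1001 to 1100 bp from a TSS had a median signal of 8.71, and the 98 intronic regions at 901 to 1000 bp one of 8.76. The deposited −log10 p did not follow the signal, with medians of 59.1 in first introns (57.2 to 61.0) and 55.8 in later introns (54.5 to 57.2).

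**Figure D3:**
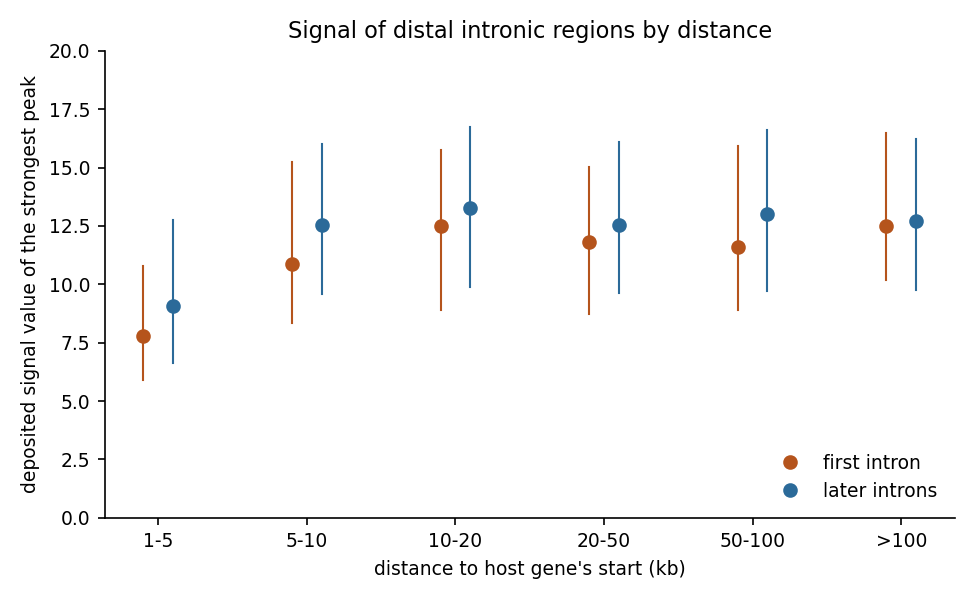
Signal value of distal intronic regions by distance to the start of the host gene in kb. Points are medians and vertical lines run from the lower to the upper quartile; orange marks the first intron and blue later introns. Medians are lowest at 1 to 5 kb, at 7.79 in first introns and 9.07 in later ones.

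Width, summit number and IDR showed little difference between the classes. Median width was 509 bp in first introns and 516 bp in later introns, beside 832 bp at promoters. More than 1 summit was present in 35.8% of first-intron members (33.9 to 37.8) and 35.7% of later-intron members (34.3 to 37.1), against 73.4% of promoter regions. A global irreproducible discovery rate (IDR) of 0.01 or below was reached by 67.1% and 66.3%. A noncoding TSS lay within 1000 bp of the summit of 3.55% of first-intron and 3.15% of later-intron members, fewer than the 10.4% of intergenic and 13.8% of promoter regions. First introns more often held several members: of 1445 first introns with a member, 33.8% had 2 or more, and of 3387 later introns 18.3%. The introns were also longer, with a median of 36.4 kb over first-intron pairs and 13.7 kb over later-intron pairs. Several members per intron were not compared at equal length.

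The base composition of the 201 bp around the summit hardly separated the classes. Median GC content was 49.3% in first introns and 48.8% in later introns, both above the 45.8% of windows centred 1000 bp away and below the 63.2% of promoters. The observed over expected CpG ratio had a median of 0.253 in first introns (0.244 to 0.264) and 0.241 in later introns (0.235 to 0.247), against 0.806 at promoters. Soft-masked repeats took up a median of 9.95% and 9.45% of the bases.

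The 17 consensus motifs were sought within 100 bp of each summit on both strands, by letters and with overlaps between motifs allowed. The letters were CNGGAAGT for ETS factors, TGTGGTT for RUNX factors, TGANTCA for AP-1, TGACGTCA for the cyclic AMP response element, CAGNTG for the E-box, ATCAAAG for TCF/LEF and TGTTTAC for forkhead factors. They were AGATAA for factors of the GATA family, TTCNNNGAA for STAT factors, AGGTGTGA for T-box factors, TGGAAAA for NFAT, GGGCGGG for KLF/SP, GCGCNTGCG for NRF1 and AAAGGTCA for NR4A. IRF, NF-kB and CTCF were sought by longer consensus letters. A match describes the letters and not binding. Motifs of lymphocyte enhancers were shared by both classes. ETS letters stood at 16.2% of first-intron summits (14.8 to 17.7) and 16.3% of later-intron summits (15.2 to 17.4), against 15.1% of all regions and 2.68% and 2.99% of the windows 1000 bp away. RUNX letters stood at 13.9% (12.6 to 15.3) and 14.6% (13.6 to 15.7), against 9.49% of all regions and 3.54% of promoter regions. AP-1 letters stood at 13.8% and 13.7%, against 9.39% of all regions and 3.77% of promoters. NF-kB letters were found at 7.64% of first-intron and 6.90% of later-intron summits, and IRF letters at 4.04% and 3.80%, with overlapping intervals in both cases. Forkhead letters, the family of Foxp3 itself, stood at 4.04% and 4.01% of summits and at 3.09% of all regions. NFAT letters were rarer at summits, at 3.05% and 3.85%, than 1000 bp away, at 4.50% and 5.39%. Letters of the cyclic AMP response element stood at 1.24% of first-intron (0.869 to 1.76) and 0.656% of later-intron summits (0.457 to 0.941), with overlapping intervals. KLF/SP letters stood at 5.41% and 4.48%.

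CTCF letters differed between the classes, with intervals that did not overlap. Its consensus was found at 2.60% of first-intron summits (63 of 2423, 2.04 to 3.31) and 6.61% of later-intron summits (292 of 4418, 5.91 to 7.38). Intergenic regions stood at 7.41% (6.84 to 8.04) and promoters at 1.41% (1.20 to 1.64). With fewer fixed letters in the consensus, a reading chosen after seeing the data, first introns were still below later ones, at 7.97% (6.95 to 9.11) against 14.0% (12.97 to 15.02), but promoters, at 11.5%, then lay between them and intergenic regions, at 16.3% (15.5 to 17.2), above both. All regions stood at 4.28%, and windows 1000 bp away at 0.248% in first and 0.249% in later introns. The share was higher further along the gene, from 2.60% in intron 1 through 3.54% in intron 2 (2.64 to 4.74), 6.39% in intron 3 (4.78 to 8.50) and 5.70% in introns 4 and 5 (4.27 to 7.56) to 9.72% from intron 11 on (7.88 to 11.9). ETS and RUNX showed no such course: from intron 11 on they stood at 15.2% and 13.6%, within the intervals of intron 1. The matches lay a median of 15 bp from the summit in first introns and 16 bp in later introns.

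The CTCF difference held at equal distance to the gene start beyond 5 kb. At 5 to 20 kb the share was 2.81% of 926 first-intron members (1.92 to 4.08) and 8.36% of 873 later-intron members (6.70 to 10.4), and beyond 20 kb it was 2.28% (1.52 to 3.40) and 6.23% (5.46 to 7.09). At 1 to 5 kb the intervals overlapped, with 2.87% (1.72 to 4.76) and 4.96% (2.43 to 9.89). Among later introns the share fell with intron length, from 10.2% up to 5 kb (8.62 to 12.03) to 3.08% over 100 kb (1.77 to 5.30). In introns of 50 to 100 kb the intervals of the classes overlapped, with 1.81% in first (0.989 to 3.31) and 3.41% in later introns (2.17 to 5.32). In introns over 100 kb the first-intron share was 5.04% (3.25 to 7.74), so first introns had the higher value there, with overlapping intervals. Hosts without a promoter region had higher shares in later introns, 10.3% (8.45 to 12.4) against 5.66% (4.94 to 6.47), and 3.84% against 2.36% in first introns, with overlapping intervals.

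Per Mb of eligible intron, CTCF went the other way from the other motifs counted this way. Members with the CTCF consensus numbered 0.285 per Mb of first intron and 0.458 per Mb of later intron, a ratio of 0.621, whereas the ratio was 1.57 for ETS, 1.50 for RUNX, 1.59 for AP-1 and 1.68 for IRF. First introns also held fewer CTCF matches in all their eligible bases, 4.54 against 5.62 per Mb, while ETS matches were 141 and 134 per Mb. Of the 1005 CTCF matches in eligible first-intron bases, 6.17% lay within 100 bp of a member summit (4.84 to 7.83), and of the 3579 in later introns 8.30% (7.44 to 9.25), with overlapping intervals. For ETS the first-intron value was the higher, at 1.37% (1.25 to 1.51) and 0.921% (0.859 to 0.987), and so it was for the other motifs counted. With near-equal ETS matches per Mb and near-equal summit shares, this order follows the density of members. Members with the CTCF letters had a median signal of 13.1 in later introns (12.5 to 13.6) and 11.8 in first introns (10.2 to 12.8), each interval overlapping that of the members without them.

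**Figure D4:**
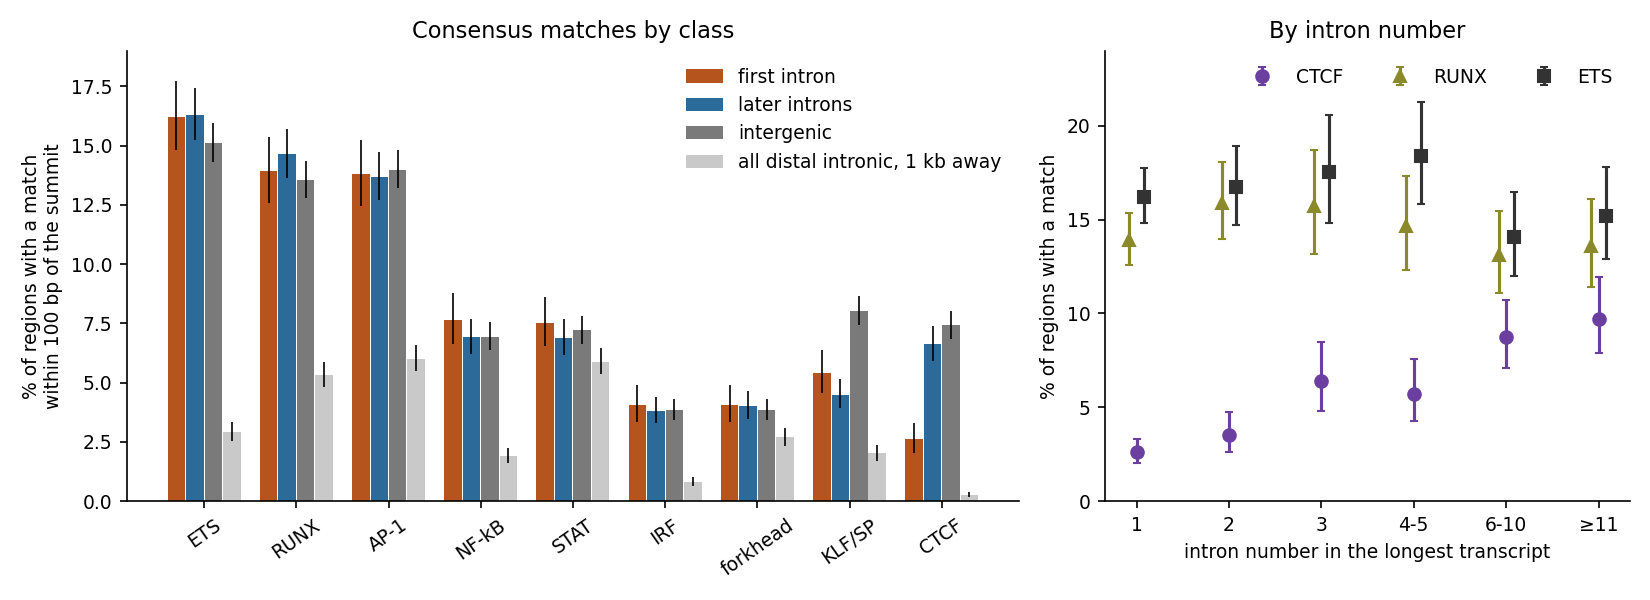
Share of regions, in percent, with a consensus match within 100 bp of the summit. Left, 9 of the motifs in first-intron, later-intron and intergenic regions and in windows 1 kb from distal intronic summits; right, CTCF, RUNX and ETS by intron number. Vertical lines are Wilson 95% intervals. ETS and RUNX shares are level between the intron classes, while CTCF stands at 2.60% in first introns and 6.61% in later introns.

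The members lay in 3476 host genes. Introns of the longest transcript held a member in 3398 of 19244 genes with eligible bases (17.7%): in the first intron of 1445 of 14332 genes (10.1%) and in a later intron of 2465 of 17455 (14.1%). Both kinds occurred in 512 genes, the first alone in 933 and later introns alone in 1953. Of the hosts, 2042 had a single member, 329 had 5 or more and 61 had 10 or more. A promoter region was present at 74.9% of hosts and at 51.6% of all genes with eligible bases. Where 1 gene offered at least 10 kb of both classes and had 3 or more members, the first intron was the denser in 277 of 492 genes (56.3%, 51.9 to 60.6).

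Prkch, which encodes protein kinase C eta, a lymphocyte signalling kinase, had 25 members, 135 per Mb of its eligible introns. Its 63.8 kb first intron held 14 of them, with signals from 5.40 to 10.7 and a median of 6.87, and later introns held 11, with signals from 5.03 to 11.3. All 25 lay below the median signal of later-intron members. Bach2, a repressor that maintains regulatory and memory T cells, had 6 in the first intron, with signals from 4.69 to 14.8, and 11 in later introns, from 5.84 to 15.4; 10 of the 11 lay in the 100 kb intron 2. Other hosts had members in 1 class only or nearly so, and in some of them the eligible bases were as uneven. Ext1, a heparan sulfate polymerase, had 11 of 13 in the first intron, and so did Pip4k2a, a lipid kinase. Dock10, a guanine nucleotide exchange factor, and Hivep2, a zinc finger factor, each had 10 of 12 there. All 10 members of Fli1, an ETS factor, lay in the first intron. Foxp1, a forkhead factor of naive and regulatory T cells, had 22 of 23 in later introns. Itpr1, the calcium release channel opened by IP3, had all 16 there, as its first intron offered no eligible base. Wwox, an oxidoreductase gene that spans a fragile site in human, had 23, all in its 639 kb intron 8. Eligible first and later introns measured 234 and 37.0 kb in Ext1, 89.0 and 58.8 kb in Pip4k2a, and 105 and 124 kb in Dock10. They measured 97.9 and 72.3 kb in Hivep2, 63.8 and 51.7 kb in Fli1, 80.6 and 479 kb in Foxp1, and 3.8 and 893 kb in Wwox.

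**Figure D5:**
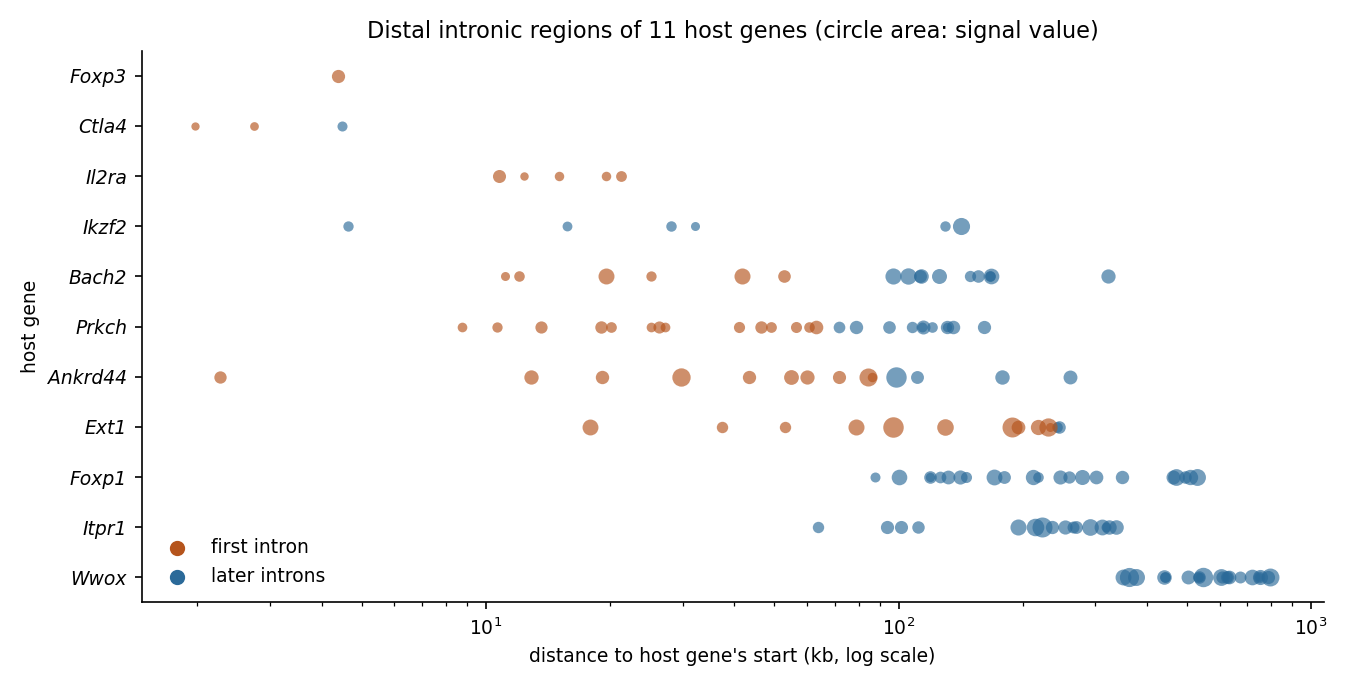
Distal intronic regions of 11 host genes by distance to the start of the gene (kb, log scale). Each circle is a region, its area proportional to its signal value, in orange for the first intron and blue for later introns. The Ctla4 region in a shorter transcript's intron and the first-intron region of Foxp1, which is also in a later intron of Gm20696, are not drawn. Prkch and Bach2 carry both kinds, while Foxp1 carries 22 of 23, and Itpr1 and Wwox all, in later introns. Eligible first intron measured 0 kb in Itpr1 and 3.8 kb in Wwox.

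Core genes of regulatory T cells hosted members often. Of 26 genes on a list of regulatory T cell genes, 10 of the 20 with eligible first introns held a member there, beside 10.1% of all genes, and 16 of 24 held one in later introns, beside 14.1%. Foxp3 had 1, in the first intron 4391 bp from its start at chrX:7583656-7584406, with a signal of 10.1 and 2 summits. Il2ra, the alpha chain of the IL-2 receptor, had 5, all in its 31.2 kb first intron, with signals of 9.82, 4.12, 5.18, 5.21 and 6.73 from 5′ to 3′. Ctla4, the inhibitory receptor, had 3.95 and 4.40 in the first intron, 5.81 in intron 3 and 9.01 in an intron of a shorter transcript. In Ikzf2, which encodes Helios and whose first intron offered no eligible base, all 6 lay in later introns, and the one in intron 6 was the strongest at 16.9, the others lying between 4.70 and 6.31. Entpd1, the ectonucleotidase CD39, had 6 first-intron and 2 later-intron members, and Nrp1, neuropilin-1, had 7 in later introns. Eligible first and later introns measured 92.6 and 22.8 kb in Entpd1 and 2.82 and 131 kb in Nrp1. No member was found in the introns of Maf, Il1rl1, Klrg1, Ccr8 or Tnfrsf4, and Tnfrsf18 offered no eligible base.

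Lists of signalling and transcription factor genes are read against the same shares over all genes, 10.1% in first and 14.1% in later introns. Those shares were higher in genes with long introns and a promoter region, and most genes of these lists had a promoter region. With a promoter region and 20 to 50 kb of eligible intron, the share was 41.3% in first and 26.6% in later introns. With 50 to 100 kb it was 57.3% and 46.6%. Of 35 genes of T cell receptor signalling, 17 of 29 had a first-intron and 19 of 34 a later-intron member: Prkcq, protein kinase C theta, had 9 of 11 in the first intron, whereas Fyn, a Src family kinase, had 9 of 12 and Cblb, a ubiquitin ligase that restrains activation, 11 of 11 in later introns. The first intron of Cblb offered no eligible base. Fyn offered 24.2 kb of eligible first and 160 kb of later intron, and Prkcq 52.6 and 63.4 kb. Cbl and Nfatc3 had none, nor had Zap70, Lat, Malt1, Bcl10, Vav1, Rela, Orai1, Txk and Dgka. Of 23 T cell transcription factor genes, 12 of 16 and 15 of 22 held members, with 8 of 10 in the first intron in Tox, 7 of 12 in Rora and none in Tcf12 despite 246 kb of eligible later intron. In this list the density was 27.6 per Mb in first introns and 39.8 per Mb in later ones, without intervals. Rora alone offered 537 kb of the 1.20 Mb of eligible first intron, with 7 of the 33 first-intron members. Among regulators of small GTPases and the cytoskeleton, 16 of 23 and 18 of 24 gene records held members, Arhgap26 being counted as 2 records that share members. Arhgef3 had all 13 in later introns, with 250 kb eligible there and 28.1 kb in the first. The cyclic AMP list gave 4 of 8 and 5 of 9. Pde4d, a phosphodiesterase, had 14 in later introns and 1 in a shorter transcript's intron. It offered 1061 kb of eligible later intron and 204 kb of first.

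For lists of other kinds the shares over all genes were again 10.1% in first and 14.1% in later introns. Housekeeping genes, all 17 of which had a promoter region, had a first-intron member in 1 of 9 and a later-intron member in 2 of 11, close to those shares. B cell genes had none in 9 first introns and members in 4 of 12 in later introns, and myeloid genes none in 7 and members in 2 of 11. The counts of the B cell and myeloid lists are too small in either class to be set apart from the shares over all genes. Their later-intron shares were 33.3% and 18.2%. The later-intron members included 3 in Blk, a Src family kinase of B cells, and 1 in Spi1, a myeloid and B cell ETS factor, with a signal of 18.8. In 18 long neuronal genes no member lay in the 4.73 Mb of eligible first intron, and 7 lay in 18.4 Mb of later intron. The later introns of these genes thus held 0.380 per Mb, beside 7.04 over all genes, whose first introns held 10.8. Of the 18 genes, 5 had a later-intron member (27.8%), with a median of 1087 kb of eligible later intron beside 11.1 kb over all genes. Eligible first intron per gene had a median of 3.41 kb in the regulatory T cell list, 17.97 kb in the receptor signalling list, 30.6 kb in the transcription factor list, 28.1 kb in the small GTPase list, 56.6 kb in the cyclic AMP list, 1.09 kb in the myeloid list and 261 kb in the neuronal list, beside 4.45 kb over all genes. The part of these lengths in the counts was not tested.

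Signals in first introns ran up to 29.7 in Zfp804b, 28.7 in 4931414P19Rik and 28.5 in Tmcc3, and in later introns up to 39.3 in Gnb1l, in a region 275 bp wide, 34.5 in AI481877 and 33.1 in Stxbp4. By alignment, 6 members carried sequence like the mitochondrial genome: the regions in Zfp804b over 193 bp, Stxbp4 over 395 bp and Zdhhc3 over 188 bp, and 3 neighbouring regions in intron 30 of Myo3a at 97.5 to 98.7% identity. The Myo3a regions held the highest deposited −log10 p of all members, 3782, with a signal of 8.76. Where the reads of these 6 regions came from was not tested.

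Some host introns in the annotation enclose other genes. Gm20388 has a first intron of 4.38 Mb that encloses 71 other protein-coding genes and 67 members, Fgfr2 an intron 2 of 2.91 Mb with 29 genes and 26 members, and Gm37240 an intron 3 of 1.24 Mb with 13 members. Gm20696 shares its intron 4 with intron 2 of Foxp1 and the same 11 members. Across chromosomes, X was the sparsest with members: 5.01 per Mb in first and 1.92 in later introns, while autosomes ran from 8.26 to 14.5 and from 6.05 to 9.13. The mice were male, and the part of X copy number in these densities was not tested. First introns were the denser on every autosome except chromosome 16, with 8.26 against 9.13 per Mb. No member lay on chromosome Y.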

How the data were processed

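The 2 libraries of 1 biological replicate were assayed by ATAC-seq, and the peak lists pool them. The deposited lists give for each peak a score, a signal value, and the −log10 of p from the authors' caller, and the deposited ranked list adds the −log10 of the global IDR. The build is mm10, per the labels; aligner, caller, settings and read depth: not given in the sources used here. All 48668 thresholded peaks were merged where they overlapped by 1 bp or more, and regions were assigned with GENCODE M21, the longest transcript being the one of largest genomic span. Host pairs count a member once for each of its hosts; 244 members had several. Members that share an intron or a host are not replicates. Intervals are Wilson for shares, Poisson for densities and order statistics for medians, at 95%, and the computations were tested on simulated data. No test was made, as there was 1 group. Sequences came from the NCBI RefSeq GRCm38.p6 genome and were aligned to its mitochondrial sequence with blastn 2.17.0 at an E-value of 1e-10. Python 3.11.15, numpy 2.4.6, scipy 1.17.1 and matplotlib 3.10.9 were used. The members and lists were chosen with earlier results of these data known. Named genes were the hosts with the most members overall and by class, hosts of the strongest members, the fullest introns, up to 4 genes per list with the most members and up to 2 with none, and always Foxp3, Il2ra, Ctla4, Ikzf2 and Bach2. Alternatives changed the peak list, the IDR limit, merging, the summit, the transcript, the distance to the TSS, the motif window and the hosts.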

Additional observations from a re-analysis of the deposited data

How the results depend on the processing

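The first-intron share of members, 34.0% as reported, was 32.9% with the pseudoreplicated list and also with the longest spliced transcript, 45.0% when the first intron of any protein-coding transcript counted as first, and 35.7%, 32.4% and 31.9% with members over 500, 2500 and 5000 bp from TSSs. The density ratio of 1.58 became 1.49 with the pseudoreplicated list, 1.67 with the longest spliced transcript and 1.68 over 500 bp. Counted per pair of member and host, the ratio was 1.54 over all hosts. On that count, alternatives chosen after seeing the data gave 1.28 at equal distance. They gave 1.78 in hosts with a promoter region and 1.07 in hosts without one. With any region that reaches within 1000 bp of a TSS counted, the ratio was 1.78 with and 0.999 without such a region. Members themselves counted as such regions, which can move their own hosts out of the group without one. Of first-intron members 4.70% reached within 1000 bp of a TSS, and of later-intron members 2.06%. The signal difference, first minus later, of -1.56 became -0.87 with the pseudoreplicated list, -1.14 over 2500 bp and -0.74 over 5000 bp. The CTCF difference of -4.01 percentage points was -2.91 at an IDR of 0.01 or below and, chosen after seeing the data, -6.00 with fewer fixed letters. The GC difference of 0.50 points was 0 within 50 bp of the summit. Hosts rose from 1445 to 2485 for first and from 2465 to 4346 for later introns with the pseudoreplicated list. The cause of these shifts was not tested. No replicate could be left out and no paired analysis was possible because the lists pool both libraries. The depth behind each value is unknown.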
